A study of Mus musculus with 9 samples.

Results

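The genes described here are 50 markers of the cells of the heart that are not cardiomyocytes: endothelial cells, mural cells (pericytes and smooth muscle), fibroblasts and their matrix, and immune cells. A bound region was counted for a gene when it touched the gene's RefSeq span on GRCm38 or the 10 kb on either side. This gave 137 of the 16884 regions in the table, near 40 of the 50 genes. No region lay near the other 10, which were Tek, Emcn, Tagln, Cnn1, Myh11, Pdgfra, Postn, Dcn, Ptprc and Csf1r. Of the 137 regions, 95 touched a marker gene itself and 42 lay outside it, and 5 were shared by Col4a1 and Col4a2, which start head to head.

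The assay was chromatin immunoprecipitation and sequencing (ChIP-seq) of NR4A2 in ventricular tissue. The NR4A2 group was 3 Nr4a2-icTg mice, in which an Nr4a2 transgene placed at ROSA26 is switched on by a tamoxifen-inducible Cre. The control group was 3 littermates that carry the same αMHC-MerCreMer Cre without the transgene. All 6 mice were 8 to 9 weeks old, carried the Cre, and were sampled 3 days after 1 dose of tamoxifen at 40 mg/kg, so Cre and tamoxifen are common to both groups. The Myh6 promoter drives the Cre, which confines the induced NR4A2 to cardiomyocytes, whereas the chromatin came from whole tissue with all its cell types. Endogenous NR4A2 in any cell type can therefore contribute to both groups, and fewer cells of a type and less signal per cell cannot be told apart. The other samples of the series, from antibody testing and input DNA, were not analysed here.

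NR4A2 (Nurr1) is an orphan nuclear receptor of the NR4A family. It binds DNA as a monomer at the NBRE element, or as a dimer, and the NR4A genes are early-response genes in many tissues, vessels and macrophages included. Endothelial identity is held by ETS factors (Fli1, Erg) and SOXF factors (Sox7, Sox17, Sox18), downstream of which lie the receptors for VEGF, angiopoietins and Notch ligands. Mural cells depend on PDGF and Notch3 signalling, fibroblasts build the collagen matrix, and the ETS factor PU.1 (Spi1) directs the myeloid lineage.

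Signal is given as CPM, a library's reads in a region scaled by its reads in all regions. The 6 libraries held 549700 to 1035856 such reads, so 1 read was worth 0.955 to 1.81 CPM, and the median region held 20 to 40 reads. Counting error alone is thus large for a weak region: 3 reads are 2.86 to 5.43 CPM. Fold changes are NR4A2 over control on the log2(CPM + 1) scale, with standard errors (SE). Adjusted p-values are from limma with Benjamini-Hochberg adjustment over all 16884 regions, and a region is called higher or lower at an adjusted p under 0.05. The replicates are separate mice, 3 a group, and the labels give no batch. For comparison, 278 regions lay near 14 of 15 cardiomyocyte markers, 183 of them near the single gene Ttn. These 278 regions held 4.42% to 6.50% of the reads in control libraries and 5.35% to 6.61% in NR4A2 libraries, so the groups overlapped.

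Near the marker genes, 7 regions were higher in NR4A2 hearts and 7 were lower, each near a different gene. The higher regions belonged to Angpt2, Vwf, Col4a2, Notch3, Itgam, Esam and Klf2, and the lower ones to Spi1, Fli1, Notch1, Pecam1, Dll4, Tie1 and Sox18. The 7 higher regions are 5.11% of the 137, against 14.7% of all regions. The 7 lower regions are also 5.11%, against 3.17% of all regions. All regions include those over 10 kb from a gene, which the rule for marker regions leaves out. Of the 40 genes with a region, 26 had none called, 7 (17.5%) had a higher region and 7 (17.5%) a lower one, while 14.2% of the 11154 genes in the whole table carried a higher region and 6.25% a lower one. A gene with more regions has more chances to hold a call. The marker genes had up to 11 regions each, and the gene shares were not matched for this. The 2 sets of called regions differed in strength. The higher ones were weak in control hearts, with means of 8.40 to 39.0 CPM, and reached 38.5 to 109 CPM in NR4A2 hearts. The lower ones began at 51.7 to 170.1 CPM and fell to 27.5 to 112 CPM.

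**Figure D1:**
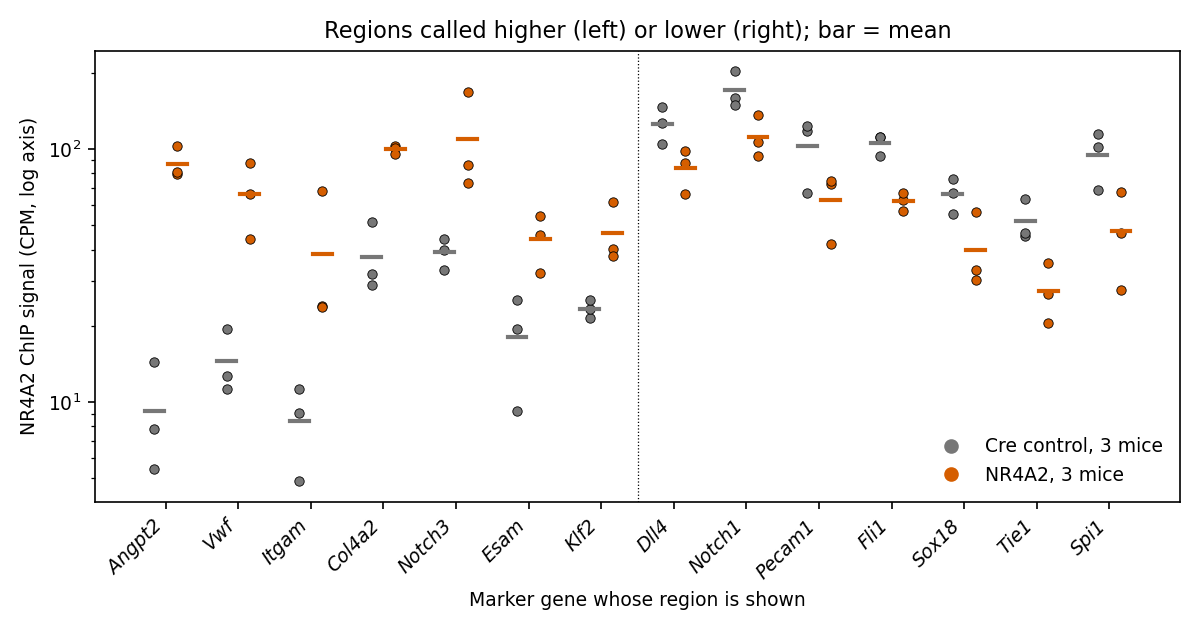
CPM in each mouse (vertical log axis, points) at the 14 called regions, named by the marker gene nearby, for 3 control and 3 NR4A2 hearts, with the group mean as a bar. The groups do not overlap at any of the 7 higher regions, and they overlap at Pecam1 and Sox18 among the 7 lower ones.

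The balance between higher and lower depended on how the libraries were scaled. Centring each library on its median gave 6 higher and 14 lower marker regions, and leaving the reads unscaled for depth gave 5 higher and none lower. Counts over all regions moved too, from 2475 higher and 536 lower to 2219 and 1040 after centring and to 1398 and 14 unscaled. Unscaled, the fold changes of the lower calls stayed close while their p-values rose, as at Fli1 with -0.78 (limma adjusted p = 0.417) and Spi1 with -1.07 (0.147). The median fold change of the marker regions was -0.22 on the log2 scale, against -0.06 for all regions, and 94 of 137 (68.6%) were below 0, against 54.7% of all regions. Centring moved the median of all regions by 0.11, to -0.17, and that of the marker regions to -0.33. In each of the 15 fits that were run, the marker median lay below that of all regions, but these fits reuse the same 6 mice. Rescaling shifts both medians nearly alike, so the rescaled fits do not test their order. All NR4A2 mice lay above all controls at 13 marker regions (9.49%), against 19.9% of all regions, and below them at 22 (16.1%), against 11.7%.

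**Figure D2:**
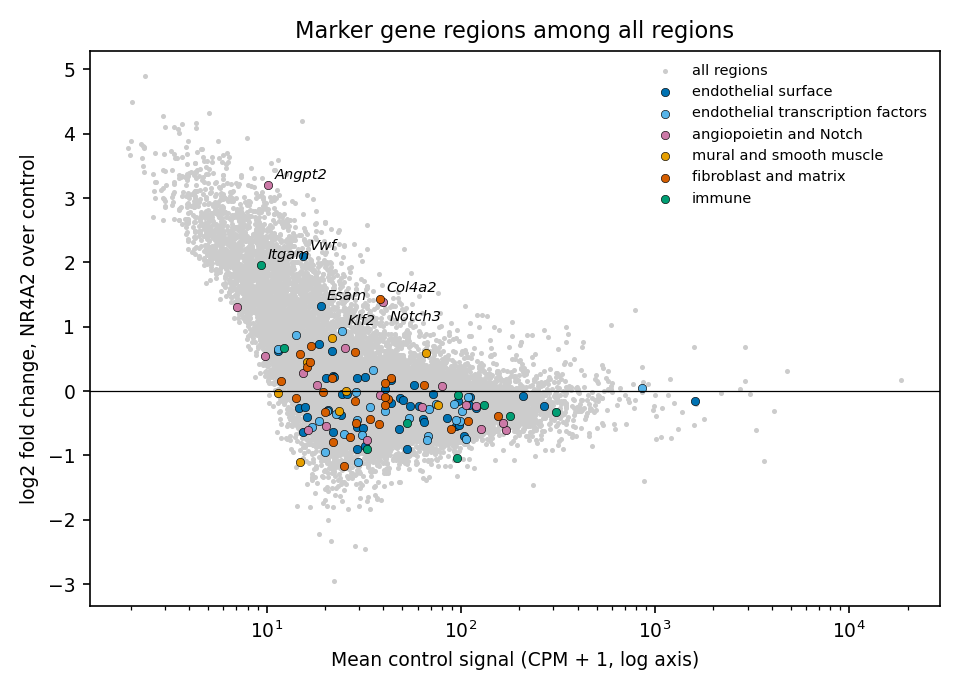
Log2 fold change (NR4A2 over control) of the 137 marker regions against mean control CPM + 1 (log axis), coloured by gene group, with all regions in grey and the higher ones named. The 7 higher regions sit at control means of 8.40 to 39.0 CPM with fold changes of 0.93 to 3.20, and the 7 lower ones between -1.05 and -0.58.

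The angiopoietin and Notch genes held the strongest gain. Angpt2 encodes angiopoietin-2, a context-dependent antagonist of the Tie2 receptor released by endothelial cells. Its 521 bp region (GRCm38 chromosome 8, 18695647 to 18696167) lies inside the gene, 5384 bp from its nearer end, and the span of Mcph1 also covers it. The control mice had 14.3, 7.79 and 5.43 CPM, and the NR4A2 mice 79.2, 102 and 80.7 CPM. Every NR4A2 mouse was far above every control. The mean went from 9.19 ± 4.62 to 87.5 ± 12.99 CPM (SD, n = 3). This is 3.20 ± 0.37 (SE) on the log2 scale, with a limma adjusted p of 1.56e-10. Angpt1, which encodes the agonist of Tie2, had 6.02 CPM in control and 15.6 CPM in NR4A2 hearts at its region, a fold change of 1.30 ± 0.64 that was not called (limma adjusted p = 0.166). No region lay near Tek, the gene for Tie2 itself.

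Notch3, the Notch receptor of mural cells, had a higher region 9048 bp beyond the gene (chromosome 17, 32110569 to 32111772). The controls had 44.1, 33.1 and 39.8 CPM and the NR4A2 mice 73.5, 86.7 and 168 CPM. The groups did not overlap, and NR4A2 mouse 3 was far above the other 2. The log2 fold change was 1.38 ± 0.26 (limma adjusted p = 3.03e-05), and the call held when any 1 mouse was left out. Notch1, the main endothelial Notch receptor, went the other way at its start site (chromosome 2, 26503588 to 26504294). The controls had 159, 149 and 203 CPM and the NR4A2 mice 107, 136 and 93.3 CPM. The groups did not overlap, with means of 170.1 ± 28.6 and 112 ± 21.6 CPM (SD, n = 3). The fall was -0.60 ± 0.19 on the log2 scale (limma adjusted p = 0.0158), and it was not called without control mouse 3, NR4A2 mouse 1 or NR4A2 mouse 3, where the adjusted p reached 0.134.

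Dll4, the Notch ligand of arterial and tip endothelial cells, fell at a region 1679 bp beyond the gene (chromosome 2, 119337345 to 119338205). The controls had 127, 146 and 105 CPM and the NR4A2 mice 87.8, 66.2 and 98.4 CPM, with no overlap. The difference was -0.58 ± 0.21 on the log2 scale (limma adjusted p = 0.0371), and it was not called without control mouse 1 or 2 or NR4A2 mouse 1 or 2, where the adjusted p reached 0.216. The region over the Dll4 start site had 79.4 CPM in control and 84.0 CPM in NR4A2 hearts. Notch4, another endothelial Notch receptor, missed the threshold with 178, 139 and 172 CPM in controls and 129.9, 86.7 and 135 CPM in NR4A2 mice. Its groups did not overlap, and its fold change was -0.49 ± 0.19 (limma adjusted p = 0.0611). Over the 18 regions near these 6 genes, 2 were higher (11.1%) and 2 lower (11.1%), with a median of -0.14. The shares of this and the following groups are to be read against 14.7% of all regions higher and 3.17% lower.

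Among endothelial surface genes, 47 regions near 12 of 14 genes gave 2 higher (4.26%) and 2 lower (4.26%) calls, with a median of -0.22. Vwf encodes von Willebrand factor, the clotting protein stored in endothelial cells. Its region is intragenic, 6021 bp from the nearer end of the gene (chromosome 6, 125679814 to 125680658). The controls had 11.3, 19.5 and 12.7 CPM and the NR4A2 mice 43.9, 66.2 and 88.3 CPM. The lowest NR4A2 mouse was above every control, and the fold change was 2.10 ± 0.36 (limma adjusted p = 4.49e-06). Esam, an adhesion molecule of endothelial junctions, rose at a 300 bp region 267 bp from an end of the gene (chromosome 9, 37537753 to 37538052). The controls had 9.22, 19.5 and 25.3 CPM and the NR4A2 mice 32.5, 45.7 and 54.2 CPM, without overlap. Its fold change was 1.32 ± 0.38 (limma adjusted p = 0.00811). It was not called without control mouse 1 (adjusted p = 0.0961) or NR4A2 mouse 3 (0.0934).

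Pecam1 and Tie1 fell. Pecam1 encodes CD31, the junction protein most used to mark endothelium, and its called region lies 20431 bp inside the gene (chromosome 11, 106674644 to 106675635). The controls had 118, 124 and 67.0 CPM and the NR4A2 mice 42.0, 72.5 and 74.4 CPM. The groups overlapped, since control mouse 3 lay below 2 of the NR4A2 mice. The fold change was -0.69 ± 0.24 (limma adjusted p = 0.0330), and it was not called without control mouse 1 or 2 or NR4A2 mouse 1, where the adjusted p reached 0.291. All 4 Pecam1 regions were below 0. Tie1, an orphan receptor that modulates Tie2, fell over its start site (chromosome 4, 118489590 to 118490016). The controls had 45.1, 46.7 and 63.4 CPM and the NR4A2 mice 26.7, 20.5 and 35.3 CPM, with no overlap. The fold change was -0.90 ± 0.32 (limma adjusted p = 0.0383), and the call held only when NR4A2 mouse 3 was the mouse left out, with an adjusted p up to 0.173 otherwise.

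The VEGF receptors were not called. Kdr, the main signalling VEGF receptor, had 97.3, 87.6 and 95.9 CPM over its start site in controls and 78.3, 56.7 and 58.0 CPM in NR4A2 mice. The groups did not overlap, and the fold change of -0.55 ± 0.23 missed the threshold (limma adjusted p = 0.0864). Flt1, the VEGF receptor that also acts as a decoy, had 109.5 CPM in control and 94.4 CPM in NR4A2 hearts over its start site (-0.22 ± 0.21, limma adjusted p = 0.517). Nrp1, a VEGF co-receptor, had 1 region with 102, 89.5 and 97.7 CPM in controls and 64.0, 59.9 and 78.2 CPM in NR4A2 mice. Its groups did not overlap either (-0.52 ± 0.22, limma adjusted p = 0.0994), while the region over its start site had 110.1 and 104 CPM. Cdh5, which encodes VE-cadherin, had 56.5 and 61.6 CPM at a region in the gene (limma adjusted p = 0.849).

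The endothelial transcription factors had 28 regions near all 6 genes, with 1 higher (3.57%), 2 lower (7.14%) and a median of -0.33. Fli1, an ETS factor, fell at a region that lies 1509 bp from an end of the gene (chromosome 9, 32541105 to 32541923). The controls had 112, 111 and 94.1 CPM and the NR4A2 mice 63.0, 56.7 and 66.8 CPM. Both groups were tight and well apart, with means of 106 ± 9.93 and 62.2 ± 5.10 CPM (SD, n = 3). The fold change was -0.75 ± 0.22 (limma adjusted p = 0.00947), and this was the only one of the 7 lower calls that held when any 1 mouse was left out, though only at the threshold without control mouse 1 (adjusted p = 0.0498) or 2 (0.05). Of the 9 Fli1 regions, 8 were below 0, and a weaker one missed the threshold at -1.10 ± 0.44 (limma adjusted p = 0.0720). Erg, the closest relative of Fli1 in endothelium, had 60.5, 79.8 and 59.7 CPM over its start site in controls and 32.5, 45.7 and 44.1 CPM in NR4A2 mice. Those groups did not overlap (-0.70 ± 0.28, limma adjusted p = 0.0660).

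Sox18, a SOXF factor of vessel and lymphatic development, had 8 regions, all below 0, of which 1 was called. That region lies 9597 bp beyond the gene and overlaps Gm29797 (chromosome 2, 181659509 to 181660240). The controls had 55.3, 67.2 and 76.0 CPM and the NR4A2 mice 56.3, 33.1 and 30.3 CPM. The groups overlapped at NR4A2 mouse 1, and the fold change was -0.76 ± 0.28 (limma adjusted p = 0.0487). It was not called without control mouse 2 or 3 or NR4A2 mouse 2 or 3, where the adjusted p reached 0.220. Klf2, the factor induced in endothelium by laminar flow, rose at a region 9790 bp beyond the gene (chromosome 8, 72331444 to 72331914). The controls had 21.5, 23.4 and 25.3 CPM and the NR4A2 mice 40.1, 37.8 and 61.8 CPM, without overlap. This was a fold change of 0.93 ± 0.34 (limma adjusted p = 0.0451), and it was not called without control mouse 1 or 2 or NR4A2 mouse 1 or 3 (adjusted p up to 0.250), nor after centring on the median.

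Because the window was set at 10 kb, 3 of the calls sit near its edge. Between 9 and 10 kb from a gene there were 6 marker regions, among them the higher ones of Notch3 and Klf2 and the lower one of Sox18. Between 10 and 11 kb there were 4 regions, near Spi1, Eng and Acta2, with fold changes of -0.88 to 0.29 and none called.

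The immune genes had 9 regions near 4 of 6 genes, with 1 higher (11.1%), 1 lower (11.1%) and a median of -0.32. Itgam encodes CD11b, the integrin chain of macrophages and neutrophils. Its higher region lies in the gene, 24963 bp downstream of the start (chromosome 7, 128087603 to 128087938). The controls had 11.3, 4.87 and 9.05 CPM and the NR4A2 mice 23.9, 23.6 and 68.1 CPM. The groups did not overlap, but NR4A2 mouse 3 was far above the others. The fold change was 1.96 ± 0.48 (limma adjusted p = 0.00141), and without NR4A2 mouse 3 it was 1.46 and not called (adjusted p = 0.0923).

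Spi1, which encodes PU.1, had the deepest of the 7 lower calls. The region lies 8566 bp beyond the gene and inside the span of Mybpc3, which encodes a cardiomyocyte sarcomere protein (chromosome 2, 91124325 to 91125626). The controls had 68.6, 102 and 114 CPM and the NR4A2 mice 27.7, 67.8 and 46.7 CPM. The groups were adjacent, the highest NR4A2 mouse lying just below the lowest control, and the fold change was -1.05 ± 0.26 (limma adjusted p = 0.00212). Without NR4A2 mouse 1 it was -0.71 and not called (adjusted p = 0.0663). The strongest region of the immune group was counted for Cd68, a macrophage lysosomal protein, though it lies 4989 bp outside that gene and in Eif4a1 (chromosome 11, 69671159 to 69672778). It had 304, 322 and 293 CPM in controls and 245, 252 and 236 CPM in NR4A2 mice, tight groups without overlap, yet was not called (-0.32 ± 0.16, limma adjusted p = 0.156). Summed over the 9 regions, the immune genes held 0.0905%, 0.0942% and 0.0873% of reads in controls and 0.0691%, 0.0742% and 0.0809% in NR4A2 mice, which do not overlap. Of these regions, 5 touch Eif4a1 or Mybpc3 rather than an immune gene alone. Without the Cd68 and Spi1 regions just described, a choice made after their values were seen, the other 7 held 0.0535%, 0.0518% and 0.0464% in controls and 0.0415%, 0.0423% and 0.0527% in NR4A2 mice, which overlap. The sums of the endothelial surface genes (0.353% to 0.461% and 0.340% to 0.396%) and of the endothelial transcription factors (0.194% to 0.228% and 0.184% to 0.202%) overlapped as well.

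The fibroblast and matrix genes had 27 regions near 8 of 11 genes, with 1 higher (3.7%), none lower and a median of -0.11. The call was at Col4a2, which with Col4a1 encodes the type IV collagen of basement membranes. The region is intragenic, 53465 bp downstream of the Col4a2 start (chromosome 8, 11366270 to 11367160). The controls had 51.2, 32.1 and 29.0 CPM and the NR4A2 mice 103, 101 and 95.9 CPM. The NR4A2 mice were nearly equal and all well above the controls, and the fold change was 1.44 ± 0.26 (limma adjusted p = 1.11e-05). The Col4a1 and Col4a2 locus held 15 regions, with 7 above 0 and 8 below, and this was the only 1 called. Further into Col4a2 a weak region had 20.5, 32.1 and 19.9 CPM in controls and 7.64, 12.6 and 10.1 CPM in NR4A2 mice. Here every NR4A2 mouse lay below every control, but the region missed the threshold (-1.17 ± 0.49, limma adjusted p = 0.0870). The start site that both genes share had 107, 164 and 192 CPM in controls and 97.4, 110.3 and 139 CPM in NR4A2 mice, overlapping groups (-0.39 ± 0.20, limma adjusted p = 0.179).

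**Figure D3:**
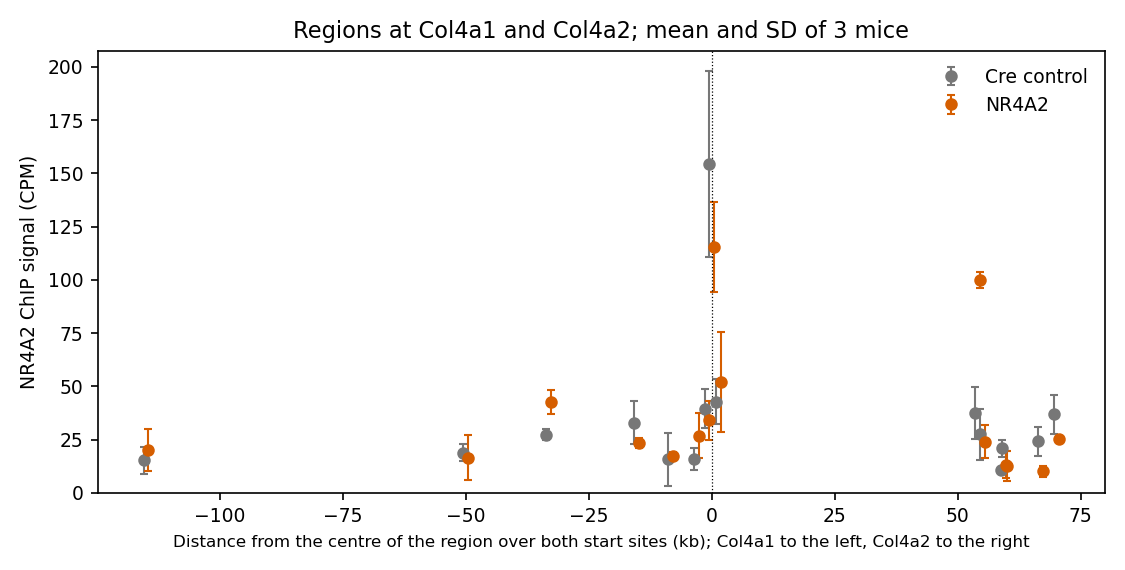
CPM (mean and SD of 3 mice) of the 15 regions of the Col4a1 and Col4a2 locus in control and NR4A2 hearts, against distance in kb from the centre of the region over both start sites. The called region, to the right in Col4a2, goes from 37.4 to 99.95 CPM, while the weaker region beside it has 27.5 and 24.1 CPM.

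Tgfb1, the fibrogenic cytokine, had 74.8, 77.9 and 110.4 CPM over its start site in controls and 67.8, 66.2 and 41.6 CPM in NR4A2 mice, without overlap (-0.59 ± 0.24, limma adjusted p = 0.0844). Start sites of other stromal genes were not called either. Tcf21, a fibroblast lineage factor, had 39.8 CPM in control and 37.5 CPM in NR4A2 hearts, Col1a2, a fibrillar collagen, 18.4 and 18.8 CPM, and Vim, an intermediate filament of mesenchymal cells, 63.7 and 66.9 CPM. The mural genes had 8 regions near 4 of 7 genes, none called, with a median of -0.01. Mylk, the myosin light chain kinase of smooth muscle, came nearest, with 51.2, 74.9 and 70.6 CPM in controls and 107, 82.0 and 106 CPM in NR4A2 mice. Its groups did not overlap (0.58 ± 0.23, limma adjusted p = 0.0613). That region lies in Mylk, 173561 bp downstream of the start, and covers the listed start site of E130310I04Rik. Pdgfrb, the PDGF receptor of pericytes, had a fold change of 0.82 ± 0.38 (limma adjusted p = 0.128), and Acta2, smooth muscle actin, had 10.5 and 10.2 CPM.

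The strongest region near any of the markers covered most of Egfl7, which encodes a protein secreted by endothelium and hosts the endothelial microRNA miR-126. It is 13032 bp long (chromosome 2, 26583441 to 26596472) and also touches Agpat2. The controls had 1611, 1867 and 1323 CPM and the NR4A2 mice 1358, 1308 and 1646 CPM. The groups overlapped (-0.15 ± 0.14, limma adjusted p = 0.540). It was at the 99.9th percentile of all regions by CPM and at the 76.7th by CPM per kb, with 117 CPM per kb. The Klf2 region over the gene had 986, 861 and 720.4 CPM in controls and 951, 977 and 721 CPM in NR4A2 mice, or 138 CPM per kb, also overlapping (0.04 ± 0.15, limma adjusted p = 0.878). By CPM per kb the Notch1 start site led the markers at 199.5. The leading regions of other gene groups were those of Vim at 173, Sox18 at 171, Flt1 at 156 and Mylk at 97.2. That of the immune genes, counted for Cd68 but lying in Eif4a1, had 170.1. The mature miR-126a-3p that lies in the Egfl7 region (chr2:26591402-26591423, plus strand, GRCm38.p6, RefSeq) is shown to mark what else that signal covers, with its seed, bases 2 to 8, in capitals.
mmu-miR-126a-3p: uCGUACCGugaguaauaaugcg

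Fold changes differed by position in the table as a whole, and the marker regions were set against that. Over all regions, 23.4% of those inside a gene and over 1 kb from its ends were higher and 2.54% lower, against 2.31% and 4.02% of those within 1 kb of a gene end. Inside genes, 4 of 68 marker regions (5.88%) were higher and 3 (4.41%) lower, with a median of -0.24 against 0.23 for all such regions. Control signal there was similar, with medians of 23.7 and 21.1 CPM. The cardiomyocyte markers had 15 of 235 regions higher there (6.38%) with a median of 0.29, but 179 of those lie in Ttn, and the other 56 had 7 higher (12.5%), 10 lower (17.9%) and a median of -0.15. Within 1 kb of a gene end, 1 of 55 marker regions was higher and 3 lower, and the marker median was -0.22, against -0.18 for all. Outside genes, 2 of 14 marker regions (14.3%) were higher and 1 (7.14%) lower, against 31.3% and 2.09% of all such regions, with medians of -0.19 and 0.33, but the marker regions there had a higher median control signal, 42.1 against 19.4 CPM. The 2 sets are also unlike in distance, since only the set of all regions includes those over 10 kb from a gene. What share of these differences comes from the cell type of the signal was not tested.

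**Figure D4:**
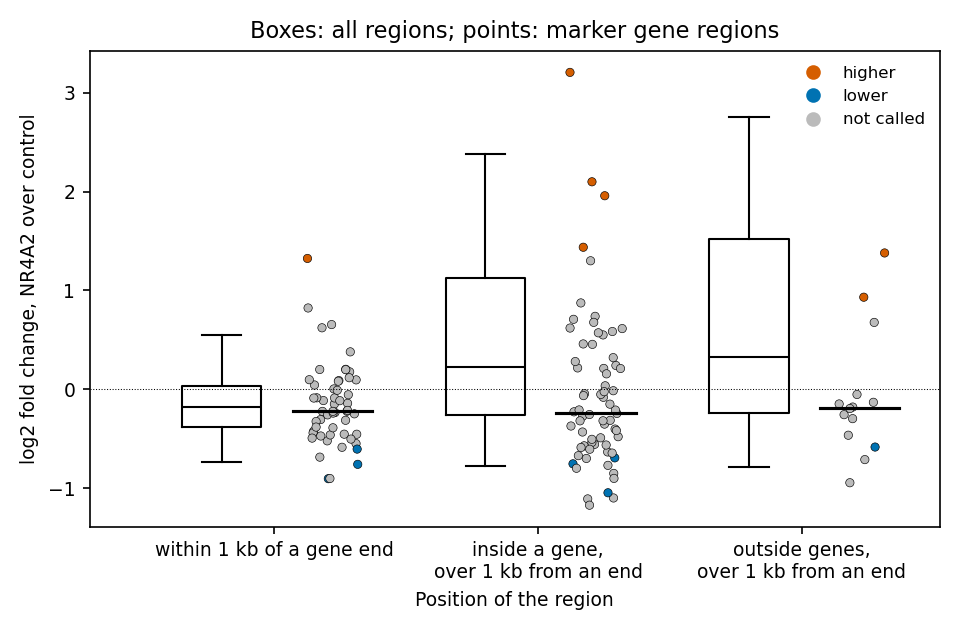
Log2 fold change (NR4A2 over control) by position relative to gene ends, for marker regions (points, bar at the median) and all regions (boxes at the quartiles with the median, whiskers at the 5th and 95th percentiles). Inside genes the marker median is -0.24 while that of all regions is 0.23, and within 1 kb of a gene end the medians are -0.22 and -0.18.

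Of the 31 markers with a promoter in the RefSeq table, 19 had a region over their own start site, in 18 regions. None of these was called higher and 2 were lower, Notch1 and Tie1, with 13 of the 18 regions (72.2%) below 0 and a median of -0.13. Of all 6026 regions that hold a listed start site, 1.31% were higher, 4.46% lower and 74.2% below 0, with a median of -0.19. All NR4A2 mice lay below all controls at 11.7% of all regions. This share was not computed for all start-site regions. Among the 18 marker regions it was so at 5, those of Kdr, Tie1, Erg, Notch1 and Tgfb1. The 250 bases before 4 of these start sites are shown (RefSeq, GRCm38.p6, 5′ to 3′ on the gene's strand): the 2 that fell, then Erg and Egfl7, which did not pass the test but hold the NR4A-type hexamer AGGTCA, or TGACCT on the other strand, given in capitals. They are Notch1 at chr2:26503823-26504072 (minus strand), Tie1 at chr4:118489850-118490099 (minus), Erg at chr16:95459349-95459598 (minus) and Egfl7 at chr2:26583615-26583864 (plus).
Notch1: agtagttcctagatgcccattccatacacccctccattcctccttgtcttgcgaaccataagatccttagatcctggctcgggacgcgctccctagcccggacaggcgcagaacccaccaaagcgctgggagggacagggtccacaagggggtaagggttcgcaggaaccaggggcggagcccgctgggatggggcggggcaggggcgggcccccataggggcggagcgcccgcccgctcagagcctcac
Tie1: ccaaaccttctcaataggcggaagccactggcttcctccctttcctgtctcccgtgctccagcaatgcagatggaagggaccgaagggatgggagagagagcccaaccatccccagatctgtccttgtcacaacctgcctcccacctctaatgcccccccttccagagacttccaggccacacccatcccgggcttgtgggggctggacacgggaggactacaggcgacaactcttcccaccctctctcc
Erg: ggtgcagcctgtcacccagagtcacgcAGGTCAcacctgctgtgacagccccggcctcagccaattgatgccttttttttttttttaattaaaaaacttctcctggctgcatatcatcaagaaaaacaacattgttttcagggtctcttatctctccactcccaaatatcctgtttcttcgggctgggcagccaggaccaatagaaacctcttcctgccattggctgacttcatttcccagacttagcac
Egfl7: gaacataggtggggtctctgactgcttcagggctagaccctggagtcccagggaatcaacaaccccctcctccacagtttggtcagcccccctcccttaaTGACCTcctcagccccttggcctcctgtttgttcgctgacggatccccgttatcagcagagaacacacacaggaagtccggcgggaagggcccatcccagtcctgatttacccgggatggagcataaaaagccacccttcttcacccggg

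The called regions over the Notch1 and Tie1 starts thus have no hexamer in these bases, while Erg has 1 starting 223 bp before its start and Egfl7 1 starting 150 bp before. Searched on both strands in 300 bp promoters, 250 before to 50 after the start, the hexamer was in 6 of 37 marker promoters (16.2%), of Egfl7, Emcn, Erg, Nrp1, Postn and Robo4, and in 16.3% of all 32851. The full NBRE AAAGGTCA (TGACCTTT), which contains the hexamer, was in 1 of the 37, that of Emcn, which has no region, and in 1.51% of all. The ETS core CCGGAAGT (ACTTCCGG) was in none of the 37 and in 3.89% of all. A match is a description of letters, and sequence of the called regions away from start sites was not used here.

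**Figure D5:**
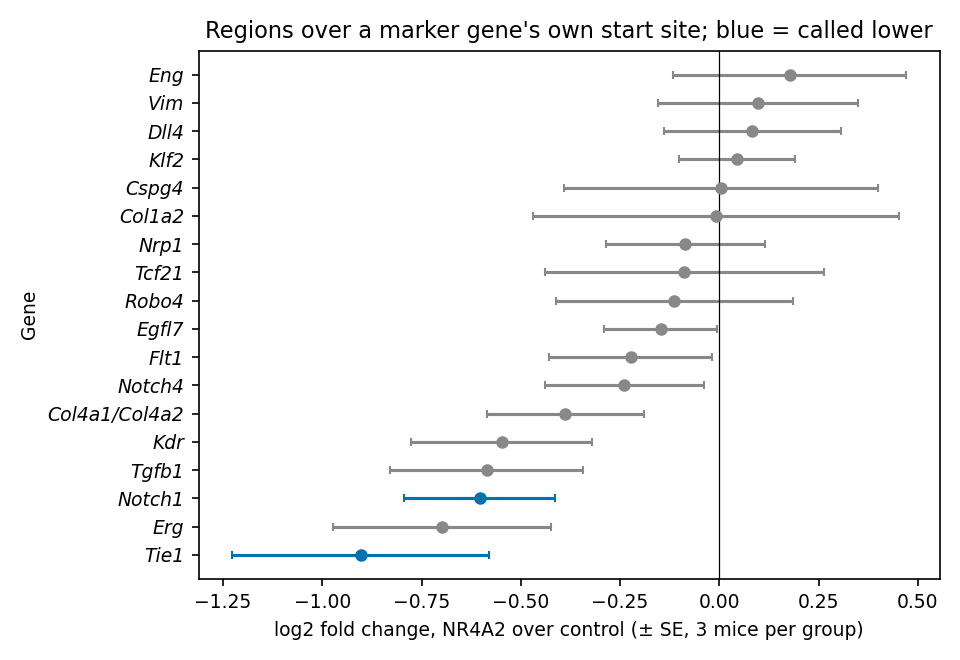
Log2 fold change (NR4A2 over control, bars show SE) over the own start site of marker genes, 18 regions in all, 1 of them shared by Col4a1 and Col4a2. Of these, 13 lie below 0, and Notch1 and Tie1 are called lower.

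Other genes of the same pathways are to be read against the 14.7% of all regions called higher and the 3.17% called lower. In the VEGF and angiopoietin list, 30 regions near 9 of 12 genes gave no higher and 1 lower call (3.33%), at Vegfb, which encodes a ligand of Flt1 (65.2 ± 18.9 to 33.6 ± 3.65 CPM, SD, n = 3, fold change -0.90 ± 0.29, limma adjusted p = 0.0186). In the Notch list, 21 regions near 9 of 12 genes gave 1 higher (4.76%) and 2 lower (9.52%), with a median of -0.34. Hes1, a Notch target and transcriptional repressor, held both directions, with 1 region going from 317 ± 20.9 to 507 ± 98.4 CPM (SD, n = 3; 0.66 ± 0.15, limma adjusted p = 0.000714) and another falling by 0.77 (limma adjusted p = 0.0339). Jag2, a Notch ligand, fell at 1 region (-0.72 ± 0.24, limma adjusted p = 0.0209).

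In the PDGF, TGF-β and SRF list, 37 regions near 17 of 18 genes gave 1 higher call (2.70%) and none lower, with a median of 0.11. That call was at Tgfb2, a TGF-β ligand, going from 15.2 to 37.5 CPM (1.22 ± 0.41, limma adjusted p = 0.0274). The colony-stimulating factor and macrophage list had 4 regions near 2 of 10 genes, of which 2 were called. Csf1, which encodes a growth factor of macrophages, had both calls: 1 region went from 11.03 to 40.6 CPM (1.83 ± 0.45, limma adjusted p = 0.00125), and another went from 20.9 to 6.21 CPM (-1.80 ± 0.63, limma adjusted p = 0.0327). Of the pathway calls, that of the strong Hes1 region held when any 1 mouse was left out. The higher Csf1 call was lost without NR4A2 mouse 3 (adjusted p = 0.0576), and that of Vegfb without control mouse 3 or NR4A2 mouse 1 (up to 0.167). Jag2 and the lower Hes1 region were each lost in 3 of the 6 such fits, without control mouse 2 or NR4A2 mouse 2 in both cases, NR4A2 mouse 1 for Jag2 (up to 0.146) and control mouse 3 for Hes1 (up to 0.270). Tgfb2 and the lower Csf1 region were each lost without control mouse 1 or 2 or NR4A2 mouse 1, and also without NR4A2 mouse 3 for Tgfb2 (up to 0.237) and NR4A2 mouse 2 for Csf1 (up to 0.229).

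The cardiomyocyte markers, whose cells carry the active transgene, had 22 of 278 regions higher (7.91%) and 20 lower (7.19%), with a median of 0.27, against 14.7% and 3.17% of all regions. Ttn, which encodes the giant sarcomere protein titin, was set apart after the values were seen and held 183 of the 278, with 9 higher, none lower and a median of 0.31. The other 95 regions had 13 higher (13.7%) and 20 lower (21.1%), with a median of -0.18. The lower region counted above for Spi1 lies in Mybpc3 and is also among these 20. Actc1, cardiac actin, went from 147 to 284 CPM at its leading region (1.00 ± 0.19, limma adjusted p = 4.14e-05), and Tnnc1, troponin C, from 188 to 86.3 CPM (-1.07 ± 0.20, limma adjusted p = 4.15e-05). Summed over the 137 regions, the markers of the other cells held 0.938%, 1.03% and 0.869% of reads in controls and 0.822%, 0.860% and 0.899% in NR4A2 mice, so the groups overlapped. The authors' deposited table marks 7 of the 137 marker regions up, against 14.9% of all regions, and 4 down, against 1.95%. Those 7 are the higher and those 4 are among the lower regions described here. The lower regions of Notch1 and Dll4 are not marked there, though the authors' false discovery rate for both is under 0.05. The authors' marks thus do not follow that rate alone, and their rule differs from the one used here.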

How the data were processed

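NR4A2 ChIP-seq of mouse ventricle was analysed in 3 control and 3 NR4A2 mice. Reads were aligned with BWA to GRCm38 (mm10), per the submitters' processing notes. The authors deposited a table of regions with a CPM value for each mouse, beside their own log2 fold changes and p-values. Peak calling, merging, counting, filters and any use of the fly chromatin spike-in were not stated in the labels or headers used here. Every CPM value was a whole number of reads (100% within 0.001 reads), so depth was recovered.

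Group differences were tested with limma 3.58.1 (trend, robust; R 4.3.3) on log2(CPM + 1), genotype only, over all 16884 regions. Alternatives were pseudocounts of 0.5 and 5 CPM, a filter at the median CPM, edgeR 4.0.16 and DESeq2 1.42.0 on recovered reads, 2 other scalings, a replicate block, a stricter threshold, other region windows, and each mouse left out. Gene spans, promoters and microRNAs came from RefSeq GRCm38.p6 tables. Every marker with a called region is named, with the strongest and near-threshold regions. On simulated counts for the 16884 regions, limma recovered 48% of changes of log2 1 and 89% of log2 2, with 7 false calls. Far fewer regions were changed there than were called here, so recovery may differ in these data. The members and lists were chosen with earlier results of these data known.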

Additional observations from a re-analysis of the deposited data

How the results depend on the processing

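No fold change of a called region named here reversed under any alternative run on it. Leaving out 1 mouse gave 4 to 8 higher and 2 to 6 lower regions, the same ranges as for genes. The calls at Angpt2, Vwf, Col4a2, Notch3 and Fli1 held in all of these 6 fits. The counts moved most without NR4A2 mouse 3 (4 higher) and without NR4A2 mouse 1 (2 lower), control mouse 2 or NR4A2 mouse 2 (4 lower each). Lower regions numbered 3 with DESeq2, 3 with the filter at median CPM (4 higher), 0 unscaled, 4 in the gene span alone, 2 at an adjusted p under 0.01, and 14 near 13 genes after centring. Keeping only regions whose nearest gene is the marker gave 6 higher and 5 lower, so some calls lie nearer another gene. With edgeR there were 8 higher and 7 lower marker regions. Counts over all regions, 2475 higher and 536 lower in the fit used above, moved as well. They were 1398 and 14 unscaled, 2177 and 251 with DESeq2, and 481 and 235 of 8442 regions with the filter. With 1 mouse left out, they ran from 1577 to 2332 higher and from 270 to 454 lower. The Pecam1, Dll4, Tie1, Klf2 and Sox18 calls were lost with DESeq2, Sox18 also with edgeR, and Esam, Klf2 and all 7 lower calls unscaled. The cause of these differences was not tested. Some of the settings also use fewer regions or samples. Mice with the same number did not deviate together (correlations of -0.066, 0.061 and 0.033), and a replicate block left 7 higher and 7 lower marker regions. The reads per region limit what can be seen, since 3 reads are up to 5.43 CPM and the higher regions had control means from 8.40 CPM.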

Other observations

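Markers of further heart cells (lymphatic, endocardial, epicardial, glial, adipocyte, lymphocyte and pericyte genes) had 11 regions near 5 of 14 genes. Of these, 1 was higher (9.09%, against 14.7% of all regions) and none lower (against 3.17%). Their median fold change was 0.25 on the log2 scale, against -0.06 for all regions. The call was near Prox1, the lymphatic endothelial regulator, and went from 16.7 to 39.1 CPM (1.07 ± 0.40, SE, limma adjusted p = 0.0495). It was lost without any 1 mouse but NR4A2 mouse 2, with an adjusted p up to 0.320.

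NR4A2 mouse 3 was the highest of the 6 mice at 5 of the 7 higher marker regions, those of Vwf, Notch3, Itgam, Esam and Klf2. How often this mouse was the highest among all higher regions was not computed. Without it, 4 of the marker regions were called higher, and over all regions the higher calls went from 2475 to 1577.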
